A study of Homo sapiens with 24 samples.

Results

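Short intron windows are the stretches of RNA that the authors' annotation places next to both splice sites of an intron at the same time (feature type SSB_ADJ). All windows with this type as their first annotation were taken from the 6 deposited lists of enriched windows, and a window was identified by its chromosome, start, end and strand. This gave 5144 distinct windows of 225825 in all, in 2402 of the 9784 genes with a listed window. The lists come from eCLIP in HEK293, a human cell line from embryonic kidney. The method crosslinks proteins to their RNA in the cell, isolates 1 protein by immunoprecipitation (IP) and compares the RNA fragments bound to it with those of an input library. The 24 libraries form 12 groups of 2, an input and an IP group for each of 6 experiments: SNRNP200 in whole cells with 500 µM arsenic and untreated, SNRNP200 in the cytoplasmic fraction with 500 µM arsenic and untreated, and CAPRIN and G3BP1, both untreated by the characteristics of their samples. The labels give no treatment time, do not say which CAPRIN family member was meant, and do not state if the 2 replicates came from separate cultures. The p-values therefore measure only how far these samples spread.

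An intron is removed in 2 steps by the spliceosome, which reads the 5′ splice site, the branch site and the 3′ splice site. SNRNP200 is a helicase carried by the U5 snRNP. It separates U4 RNA from U6 RNA to activate the spliceosome, and it stays in the spliceosome during catalysis. In a short intron all of these sites lie close together. CAPRIN1 and G3BP1 are cytoplasmic proteins that bind each other and form the core of stress granules. Some short introns fold into hairpins after splicing and become microRNA precursors, which are called mirtrons.

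The annotation was checked against the positions of neighbouring windows and, where a sequence was at hand, against the letters. Of the 5144 windows, 2583 (50.2%) touched a listed exon window and were read as whole introns of at most 100 bases, with a median length of 87. An exon window was listed on both sides in 1503 of them. The rest were read from 1 side, and their other end had no exon window to check it. Of the 5144 windows, another 897 (17.4%) touched an intron window that the annotation places at 1 splice site, and were read as the middle of introns of 102 to 198 bases. No listed window touched 1650 (32.1%), and 14 fitted neither pattern. Of the middle windows, 422 had both intron neighbours listed, and the window and its upstream neighbour added up to 100 bases in 421 of them. The same sum held on the downstream side in 413. A middle window is therefore 200 bases minus the intron length, with a median of 65 bases in introns with a median of 135. The name "next to both splice sites" thus covers 2 kinds of window, and a middle window lies within 100 bases of both sites without reaching either.

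**Figure D1:**
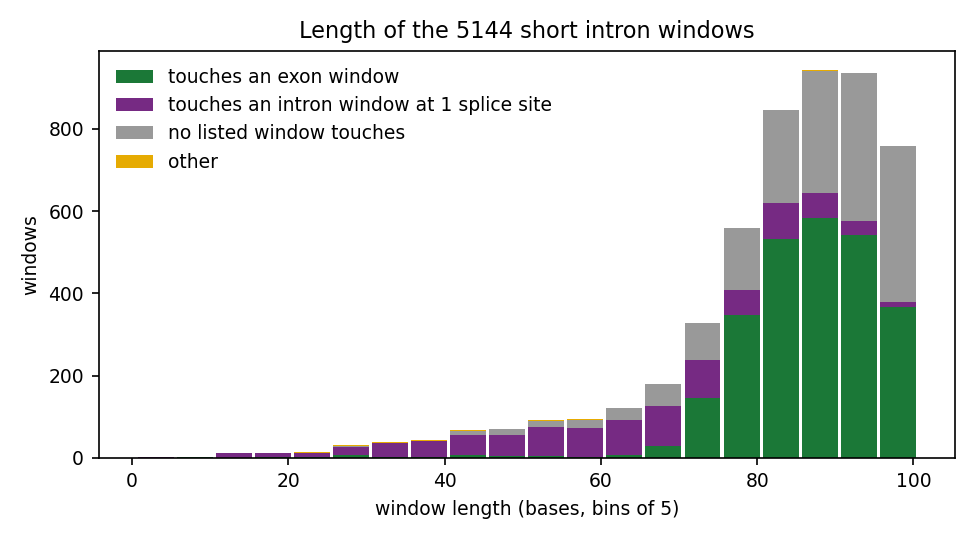
Number of short intron windows (vertical axis) by window length in bases (horizontal axis, bins of 5), stacked by what touches the window. Windows that touch an exon window (2583, green) peak between 81 and 95 bases, while of the 745 windows under 70 bases 534 touch an intron window at 1 splice site (purple).

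The sequences of 32 windows could be read in full from RefSeq tables (GRCh38.p14), 24 from promoters and 8 from microRNA hairpins. The promoters were those of the window's own gene or of another gene. In 32 of 32 windows the GC fraction of the sequence equalled the deposited one within 0.001. Of the 14 windows read as whole introns, 13 began with GT and ended with AG, the letters of nearly all human introns. Of the 3 middle windows 0 did so, and of the 13 without a listed neighbour 5 did. GT made up 4.63% and AG 7.25% of all dinucleotides in the promoter table. The exception among the windows read as whole introns was 1 of 41 bases in LMNB2, which began with GT and did not end with AG. It is the first 41 bases of the hairpin of MIR7108, which is 87 bases long and ends with AG beyond the window. Reading this window as a whole intron is therefore in doubt. The first 4 sequences below are whole windows on DNA with both splice sites, and the last is a middle window with neither. They are printed 5′ to 3′ on the strand of the gene, with the first 6 and the last 3 bases in capitals, which in a whole intron are the 5′ splice site and the 3′ splice site.
PRMT5, chr14:22924184-22924269, minus strand: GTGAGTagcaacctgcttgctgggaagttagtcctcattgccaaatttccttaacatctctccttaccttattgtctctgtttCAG
EIF3I, chr1:32222445-32222537, plus strand: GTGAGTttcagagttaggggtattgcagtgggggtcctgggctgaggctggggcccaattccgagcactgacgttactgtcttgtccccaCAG
FANCI, chr15:89305243-89305340, plus strand: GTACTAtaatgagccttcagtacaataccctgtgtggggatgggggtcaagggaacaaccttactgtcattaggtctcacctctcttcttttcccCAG
PHC3, chr3:170102711-170102801, minus strand: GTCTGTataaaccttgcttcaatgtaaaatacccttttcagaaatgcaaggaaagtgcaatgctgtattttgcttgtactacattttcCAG
RPS21, chr20:62387221-62387236, plus strand: TGCTGGgtgcggcTGG

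These windows also show what a single member looks like in the libraries. PRMT5, which encodes an arginine methyltransferase that modifies Sm proteins, had 34 IP reads over 4 input reads with arsenic, against 45 over 4 untreated. Its 2 replicates lay at log2 3.52 and 3.61 with arsenic and at 3.91 and 4.20 untreated, where log2 is the deposited enrichment in the IP over the input, scaled to windows of like GC content. EIF3I, a subunit of a translation initiation factor, had log2 3.76 and 3.94 with arsenic and 2.51 and 2.90 untreated. In PRMT5 the arsenic values lie under the untreated ones and in EIF3I above them, with no overlap in either. The 18 windows with both splice sites had 12 to 19 pyrimidines among the 20 bases before the final AG, with a median of 16. The pyrimidine tract at this place is what U2AF binds.

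MicroRNA hairpins gave a second check of position. Of all short intron windows 39 (0.758%) shared at least 20 bases with a RefSeq microRNA hairpin, against 3 (0.00767%) of the 39128 intron windows at a 5′ splice site and 53 (0.166%) of the 31948 at a 3′ splice site. In 21 windows the hairpin ended at the last base of the window, and in 8 it began at the first. Window and hairpin were identical in 5, those of ABCF1, ARF1, ATG4D, MGAT4B and HLA-B. ABCF1, MGAT4B and ATG4D are shown as RNA with the same capitals.
ABCF1 with MIR877, chr6:30584332-30584417, plus strand: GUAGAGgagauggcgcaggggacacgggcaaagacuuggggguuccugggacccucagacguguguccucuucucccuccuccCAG
MGAT4B with MIR1229, chr5:179798278-179798346, minus strand: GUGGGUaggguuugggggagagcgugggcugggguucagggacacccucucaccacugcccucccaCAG
ATG4D with MIR1238, chr19:10552122-10552204, plus strand: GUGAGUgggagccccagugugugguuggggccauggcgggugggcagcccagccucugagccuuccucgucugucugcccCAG

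The windows of NELFE and RPS6KA4, which no listed window touches, show the geometry of the middle class. The hairpins of MIR1236 in NELFE and MIR1237 in RPS6KA4 are 102 bases long, begin with GU and end with AG. The windows inside them are 98 bases long and leave 2 bases on each side, which is the length that 200 minus 102 gives. The 2 bases outside the window on each side are in capitals.
NELFE with MIR1236, chr6:31956839-31956940, minus strand: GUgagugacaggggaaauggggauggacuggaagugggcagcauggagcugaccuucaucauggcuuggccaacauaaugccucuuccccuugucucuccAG
RPS6KA4 with MIR1237, chr11:64368602-64368703, plus strand: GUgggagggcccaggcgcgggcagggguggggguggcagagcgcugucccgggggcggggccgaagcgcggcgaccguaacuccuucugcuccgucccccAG

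Of 1562 hairpins in the table, 36 (2.30%) begin with GU and end with AG, and 16.8% end with AG. Of 16 mature arms in the 8 hairpins that hold a whole window, 4 began at the first base of the window and 3 ended at its last. Some arms reached beyond the window, and hsa-miR-7108-3p in LMNB2 lay wholly outside it. The seeds of the 16 arms, bases 2 to 8, were all different. The arms of ABCF1 and 1 arm of MGAT4B are shown with the seed in capitals.
hsa-miR-877-5p: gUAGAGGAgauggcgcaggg
hsa-miR-877-3p: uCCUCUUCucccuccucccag
hsa-miR-1229-3p: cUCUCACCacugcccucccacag

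In SNRNP200 libraries the ABCF1 window had 74 IP reads over 1 input read with arsenic and 105 over 2 untreated. Its log2 enrichment was 4.08 and 5.81 with arsenic and 3.47 and 5.01 untreated, so the replicates of the groups overlap. MGAT4B had log2 3.99 and 4.57 with arsenic and 2.93 and 4.75 untreated. ATG4D was listed untreated only, with 21 IP reads over 1 input read. NELFE had log2 5.16 and 5.68 with arsenic and 3.15 and 4.52 untreated, and its replicates do not overlap. Hairpin windows numbered 22 in the arsenic list, with a median log2 of 4.32, and 34 in the untreated list, with a median of 3.79, and 17 were in both. All short intron windows had medians of 4.19 with arsenic and 4.06 untreated.

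Short intron windows were found almost wholly in SNRNP200 whole cell libraries. The arsenic list held 3109 of 117690 windows (2.64%, exact Clopper-Pearson 95% interval 2.55% to 2.73%) and the untreated list 4668 of 182066 (2.56%, 2.49% to 2.64%). The untreated list alone thus held 4668 of the 5144 short intron windows. It also held 33371 of the 39128 intron windows at a 5′ splice site and 26944 of the 31948 at a 3′ splice site. Being listed mostly in whole cells was therefore not particular to short introns. The cytoplasmic lists held 0 of 6773 windows with arsenic, which allows a share of up to 0.0443% by the limit of 3 counts (0.0544% by the exact interval). They held 0 of 4182 untreated, which allows up to 0.0717% by the same limit (0.0882% by the exact interval). CAPRIN had 9 of 15831 (0.0569%, 0.0260% to 0.108%) and G3BP1 3 of 3023 (0.0992%, 0.0205% to 0.290%). Intervals and limits cover counting error only, and neighbouring windows share reads. The cytoplasmic lists did hold 52 windows with arsenic and 13 untreated that are exonic in their first annotation and short intron in another transcript. The lists differ in length, their libraries' totals are not used here, and the depth of each library is unknown.

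Nearly all members lay in protein-coding genes, 5051 of 5144 (98.2%). Of the 2402 genes, 1332 had 1 short intron window, 491 had 2, 234 had at least 5 and 41 had at least 10. DYNC1H1, the heavy chain of cytoplasmic dynein, and FASN, fatty acid synthase, had 22 each, and CPSF1, a subunit of the cleavage and polyadenylation factor, had 21. In DYNC1H1 20 windows were listed with arsenic and 19 untreated, in FASN 11 and 22, and in CPSF1 5 and 20. PRPF8, the core protein of the U5 snRNP, USP19, a deubiquitinase, and SBF1 had 20 each. In PRPF8 16 were listed with arsenic and 18 untreated, in USP19 15 and 19, and in SBF1 1 and 20. ANKRD36 and ANKRD36C also had 20 each, but they are near-identical copies whose reads cannot be assigned with certainty. Listed windows of any kind were fewer with arsenic than untreated: 144 and 256 in DYNC1H1, 49 and 152 in FASN, and 13 and 63 in CPSF1. In PRPF8 they numbered 138 and 187, in USP19 31 and 79, and in SBF1 16 and 119. The genes with many windows thus range widely in how many were listed with arsenic. Short introns were a larger share of the listed windows with arsenic than untreated in DYNC1H1 (13.9% and 7.42%) and FASN (22.4% and 14.5%). The same held in CPSF1 (38.5% and 31.7%), PRPF8 (11.6% and 9.63%) and USP19 (48.4% and 24.1%). In SBF1 the share was smaller with arsenic (6.25% and 16.8%).

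Within the whole cell lists, short intron windows had the highest median enrichment of the annotation classes compared. The median log2 with arsenic was 4.19 in short intron windows, 3.99 in intron windows at a 5′ splice site, 3.84 at a 3′ splice site, 3.64 in the next class out (SSB_PROX, near both sites but not next to them) and 3.32 in coding sequence. Untreated, the same medians were 4.06, 3.90, 3.72, 3.51 and 3.30. The excess over 5′ splice site windows was 0.19 with arsenic and 0.17 untreated, and that over 3′ splice site windows was 0.35 with arsenic and 0.34 untreated. The median range between the 2 replicates of a short intron window was 0.94 with arsenic and 0.92 untreated, which describes single windows and not the medians. No test was made of the excess, since windows of a list share libraries and are not replicates. Each listed window had passed the authors' q of 0.2 in its list, so these medians describe windows selected on the value compared. With arsenic, 21.3% of short intron windows had 0 input reads. The shares were 18.3% at 5′ splice sites, 14.1% at 3′ splice sites, 16.1% in SSB_PROX and 4.38% in coding sequence. How far this selection sets the order of the medians was not tested.

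**Figure D2:**
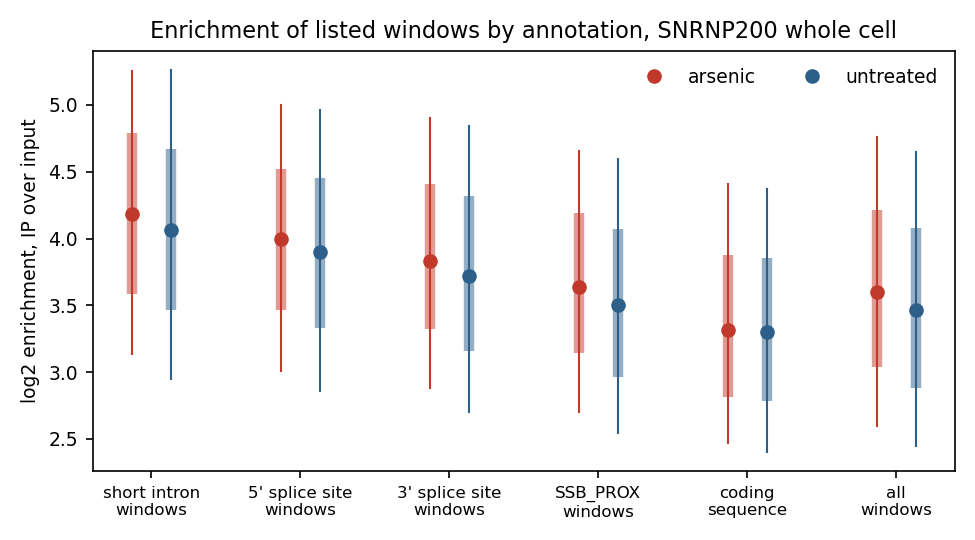
Log2 enrichment of IP over input (vertical axis) of listed windows by annotation, for SNRNP200 whole cell libraries with arsenic (red, left of each pair) and untreated (blue, right). Points are medians, thick bars the quartiles and thin lines the 10th to 90th percentile over windows, and short intron windows have the highest medians, 4.19 with arsenic and 4.06 untreated.

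Short intron windows were also set against the windows at 1 splice site inside the same gene. Of 1556 genes with both kinds of window with arsenic, the short intron median was above the 5′ splice site median in 922 (59.3%), and the median difference was 0.20. Untreated it was above in 1235 of 2101 genes (58.8%), with a median difference of 0.17. Against 3′ splice site windows it was above in 993 of 1497 genes (66.3%) with arsenic and in 1351 of 2063 (65.5%) untreated. Short intron windows also differ in composition: their median GC fraction was 0.526 with arsenic and 0.556 untreated, against 0.45 and 0.46 at 5′ splice sites and 0.41 and 0.42 at 3′ splice sites. Within the 10 deposited GC classes the excess over 5′ splice site windows was positive in 9 with arsenic and in 10 untreated, and the median over classes was 0.32 in both conditions. Per 100 bases of window, short intron windows had a median of 44.6 IP reads with arsenic and 48.8 untreated, against 27 and 28 at 5′ splice sites and 42.5 and 41.0 in coding sequence.

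Enrichment rested on few input reads. The median short intron window had 36 IP reads over 2 input reads with arsenic and 39 over 2 untreated, and 661 windows with arsenic (21.3%) and 850 untreated (18.2%) had 0 input reads. Enrichment was lower in GC-rich members, with a median log2 of 4.52 at a GC fraction up to 0.4 and 3.77 above 0.7 with arsenic, and 4.51 and 3.70 in the same classes untreated. Median IP reads went the other way, 27 and 62 with arsenic and 23 and 61.5 untreated, over median input reads of 2 and 3 in both conditions. The deposited log2 is scaled to windows of like GC content, so GC classes may differ in baseline. The part of this scaling in the lower log2 was not tested. By intron length the medians with arsenic stayed between 3.94, in introns of 141 to 160 bases, and 4.49, in introns of 101 to 120 bases. Untreated they stayed between 3.94 and 4.24.

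The enrichment over input, though not the density of IP reads, peaked on the intron rather than on its exons. In 520 whole introns with arsenic, whose exon windows were listed on both sides, the median log2 was 3.45 on the upstream exon window, 4.52 on the intron and 3.41 downstream. In 1170 such introns of the untreated list it was 3.40, 4.26 and 3.34. The intron was the highest of the 3 windows in 361 (69.4%) with arsenic and in 760 (65.0%) untreated. The median difference between intron and upstream exon was 0.99 with arsenic and 0.87 untreated, and that between intron and downstream exon was 1.10 and 0.89. IP reads per 100 bases were lower on the intron, with medians of 69.4, 51.2 and 64.5 along exon, intron and exon with arsenic, and 74.3, 54.5 and 70.8 untreated. The windows' median lengths were 71, 87 and 72 bases in both lists. Over all listed windows, median input reads were 2 in short intron windows and 4 in coding sequence, with arsenic and untreated alike.

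Introns of 102 to 198 bases with all 3 pieces listed showed no such peak in their middle. With arsenic, in 223 introns, the median log2 was 4.52 in the 5′ piece, 4.36 in the middle and 4.58 in the 3′ piece. Untreated, in 278 introns, it was 4.22, 4.26 and 4.30. The middle minus the 5′ piece had a median of -0.12 with arsenic and 0.02 untreated, and the middle minus the 3′ piece -0.22 and 0.04. IP reads per 100 bases were highest at the 3′ end, with medians of 105, 87.0 and 144 in the 5′ piece, the middle and the 3′ piece with arsenic, and 95, 93.9 and 123 untreated.

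**Figure D3:**
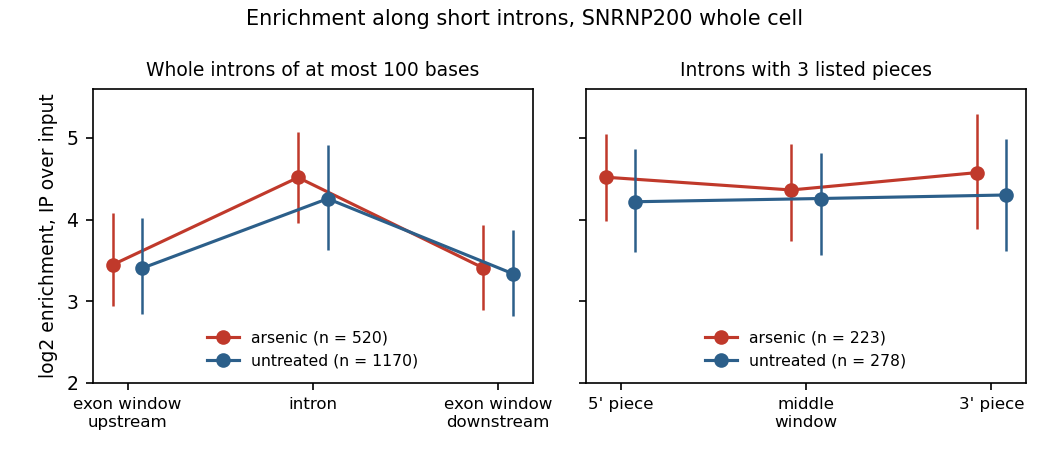
Log2 enrichment of IP over input (vertical axis) along short introns in SNRNP200 whole cell libraries with arsenic (red) and untreated (blue). Points are medians over introns and lines the quartiles; on the left a whole intron and its exon windows, with the intron at 4.52 with arsenic and 4.26 untreated, and on the right the 3 pieces of longer introns, whose medians lie between 4.22 and 4.58.

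The comparison of arsenic with untreated whole cells asks whether SNRNP200 contacts short introns differently under stress. Most windows of the arsenic list were also in the untreated list: 2638 windows were shared, 84.9% of those with arsenic and 56.5% of those untreated. Over all windows the shares were 77.4% of the arsenic list and 50.1% of the untreated list. With arsenic 1700 genes had a short intron window and untreated 2245, of which 1548 were the same genes. Only 471 windows were listed with arsenic alone and 2030 untreated alone. Nearly all of these lay in genes with some window in the other list, 469 of the 471 and 1972 of the 2030.

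The windows listed only untreated were GC-rich. Their median GC fraction was 0.605, against 0.526 in shared windows and 0.529 in those listed only with arsenic. Of untreated members with a GC fraction up to 0.6, 65.0% were also listed with arsenic, and of those above 0.6, 43.1% were. The same split gave 61.2% and 46.9% at 5′ splice sites, 58.2% and 34.3% at 3′ splice sites, and 52.2% and 20.3% in coding sequence, so it was not particular to short introns. The depth of the libraries is unknown and its part in this was not tested.

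In the shared windows no difference in enrichment passed. The 471 short intron windows listed with arsenic alone and the 2030 untreated alone were not in the fit, so a difference there was not tested. By limma (moderated, two-sided, Benjamini-Hochberg adjustment over all shared windows), 0 of 91143 windows were called at an adjusted p under 0.05 (0%), and 4076 had an unadjusted p under 0.05 (4.47%). Of the 2638 short intron windows 0 were called and 160 (6.07%) had an unadjusted p under 0.05, 68 of them higher and 92 lower with arsenic. The median difference, arsenic minus untreated, was -0.03 in short intron windows and -0.01 in all shared windows. Short intron windows spread from -3.09 to 3.51, and 1286 were above 0. The replicate values of the groups did not overlap in 370 windows that were higher with arsenic (14.03%, against 15.6% of all shared windows) and in 440 that were lower (16.7%, against 16.9%). In simulated data of these libraries limma found 0% of planted differences of log2 1, 2% of log2 2, 26% of log2 3 and 94% of log2 5, so only large differences could have been called.

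Only 75 of the shared windows had at least 10 input reads in both lists, and in 14 of these the replicate values of the groups did not overlap. Of the 75, 4 were higher (5.33%, against 11% of the 9108 shared windows with as many input reads) and 10 lower with arsenic (13.3%, against 17.7%). AURKB, a mitotic kinase, had log2 2.44 and 3.20 with arsenic and 1.50 and 1.85 untreated, a difference of 1.15 with a standard error of 0.84. EEF2, the translocation factor of translation, had 3.66 and 4.44 with arsenic and 3.01 and 3.37 untreated. NOLC1, a nucleolar phosphoprotein, had 3.63 and 3.98 with arsenic and 3.12 and 3.31 untreated. These 3, with CKB at 2.80 and 3.25 against 2.704 and 2.78, lay higher with arsenic by 0.28 to 1.15. None passed, and their limma adjusted p-values were all 1.00.

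The largest differences in the other direction included FASN, where a window had log2 2.79 and 3.07 with arsenic and 4.14 and 4.95 untreated, a difference of -1.62 with a standard error of 0.84. UHRF1, which maintains DNA methylation, had 2.26 and 2.78 with arsenic and 2.96 and 3.74 untreated. TNPO2, a nuclear import receptor, had 2.11 and 2.44 with arsenic and 2.97 and 3.11 untreated. ARIH1, a ubiquitin ligase, and RAN, the GTPase of nuclear transport, differed by -0.73 and -0.68. The groups do not overlap in any of the 5, though RAN comes close with 5.33 as its higher arsenic value and 5.36 as its lower untreated one. Their limma adjusted p-values were also 1.00.

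**Figure D4:**
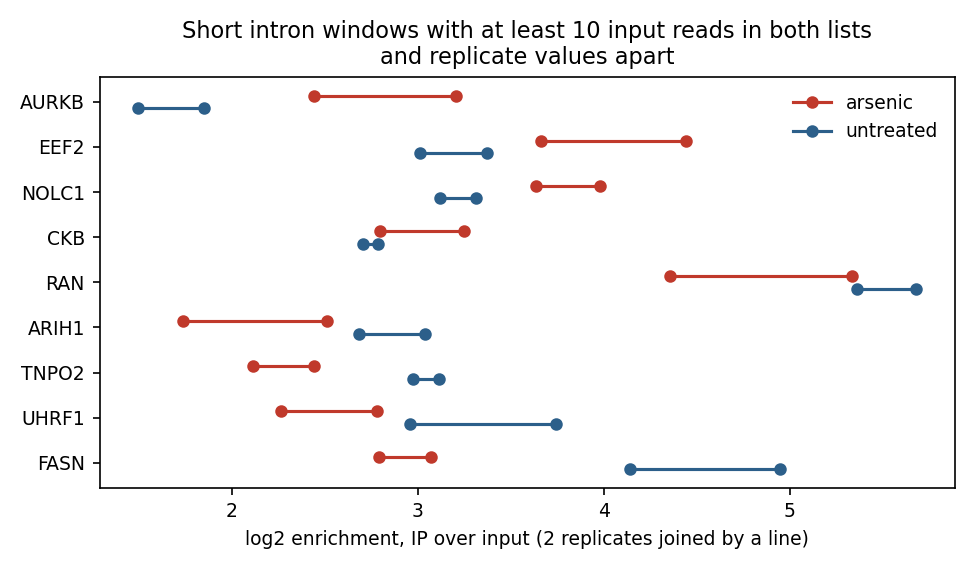
Log2 enrichment of IP over input (horizontal axis) of 9 short intron windows, with the 2 replicates of each group as points joined by a line, arsenic in red above untreated in blue. The 4 genes at the top lie higher with arsenic and the 5 at the bottom lower, AURKB by 1.15 and FASN by -1.62 at the extremes.

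The most enriched windows included introns of genes for RNA-binding proteins and a chaperone. Among windows with at least 10 input reads the highest with arsenic was in HNRNPA2B1, at log2 6.13 and 7.12 with arsenic and 6.05 and 7.10 untreated. SFPQ had 4.33 and 7.93 with arsenic and 4.03 and 6.47 untreated. HSP90AB1 had 5.45 and 6.58 with arsenic and 5.36 and 5.48 untreated. In all 3 the groups overlap, and MAT2A and PCBP2, which followed with arsenic means of 5.75 and 5.73, overlap too. In the untreated list the highest was TRIM28, a corepressor, at 6.57 and 6.82 with arsenic and 5.88 and 6.27 untreated, followed by PCBP2, BRD2, GTPBP4 and HNRNPH1. HNRNPH1, an RNA-binding protein whose gene is known for very short introns, had the highest mean of all members with arsenic: 373 IP reads over 3 input reads and log2 7.09 and 7.54, against 315 over 14 and log2 5.26 and 5.94 untreated. Its groups do not overlap, and the difference of 1.71 did not pass (limma adjusted p = 1.00).

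The windows found in 1 list only were less deep. With arsenic alone, the median was 21 IP reads and log2 3.96, and untreated alone it was 29 IP reads and log2 3.85. Those with the most IP reads with arsenic alone were in PUS1, a pseudouridine synthase (170 reads), PSMC3, a proteasome ATPase (116), LYPLA2 (108), TIMM13, a mitochondrial import chaperone (95), and ATP2A2, the calcium pump of the endoplasmic reticulum (94). Untreated alone they were 2 windows of FASN (386 and 212), FASTK (227), TELO2 (203) and CPSF1 (189). Absence from a list means that a window did not reach the authors' q of 0.2 there and says nothing of its reads.

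The shortest was a middle window of 2 bases in PRPF8, in an intron of 198 bases by the same sum, with 12 IP reads over 0 input reads untreated. A window of 8 bases in PRKDC, a DNA repair kinase, had 44 IP reads over 0 input reads with arsenic. It touched an exon window and so counted among the whole introns, but whether it is a complete intron was not tested. A middle window of 11 bases in SFXN2 had 13 IP reads over 1 input read untreated. A window of 100 bases was reached by 74 members, among them windows of FAM160B1, NMT2 and DGKZ with 14 to 22 IP reads in the lists that held them.

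Groups of genes were then counted. Over all genes with a listed window, 1700 of 8202 (20.7%) had a short intron window with arsenic and 2245 of 9052 (24.8%) untreated. Of the 17 genes of U5 and tri-snRNP proteins, the particle that holds SNRNP200 itself, 6 had a short intron window with arsenic and 8 untreated, with 33 and 40 windows, 16 and 18 of them in PRPF8. Of the 27 shared windows 14 were in PRPF8 and 7 in SNRNP200, so the values below come mostly from these genes. With arsenic 7 of the 27 were higher, against 1286 of all 2638 shared short intron windows. The median difference was -0.48, against -0.03 over all, and 0 were called. A PRPF8 window of 66 bases, for example, had log2 3.46 and 4.75 with arsenic and 4.53 and 5.32 untreated. In SNRNP70, a protein of the U1 snRNP, a whole intron of 82 bases had 2.56 and 2.93 with arsenic and 3.81 and 3.84 untreated, and the replicates do not overlap. U1 snRNP proteins had 6 windows in each list, and 2 of their 5 shared windows were higher with arsenic.

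The group of proteins that recognise the branch site and the 3′ splice site was counted together with the spliceosome helicases DHX15, DHX16 and AQR. In it 17 genes had a listed window and 10 a short intron window in each list. These were 25 short intron windows with arsenic and 29 untreated, of which DHX16 gave 1 and 4. Of 24 shared windows 11 were higher with arsenic and the median difference was -0.04. SF3B3 and SF1 lay at opposite ends of the named examples: a window of SF3B3, part of the U2 snRNP, had log2 5.27 and 7.60 with arsenic and 4.14 and 4.46 untreated, and a window of SF1, the branch point binding protein, had 4.74 and 5.94 with arsenic and 6.28 and 7.21 untreated. RNA polymerase II subunits had 14 windows with arsenic and 17 untreated, and of the 14 shared ones 5 were higher with arsenic. In POLR2A, the largest subunit, a middle window of 57 bases had 5.38 and 5.92 with arsenic and 5.93 and 6.78 untreated. Stress granule genes had 17 windows with arsenic and 18 untreated, of 16 shared ones 8 were higher, and the median difference was 0.01. By limma 0 windows were called in each of these groups, and the median over all short intron windows was -0.03.

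Genes known for very short introns, HNRNPH1, NDOR1 and ESRP2, had 3 windows with arsenic and 13 untreated. All 3 windows with arsenic were shared, and 2 of them were higher. A second HNRNPH1 window, the middle 51 bases of an intron, had log2 3.26 and 3.26 with arsenic and 4.94 and 6.20 untreated, while the first lay higher with arsenic. The 2 windows of this gene thus differ in opposite directions, by -2.31 and 1.71.

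The 2 HSP90 genes had more IP reads with arsenic in all of their shared short introns. The heat shock list had 12 short intron windows with arsenic and 9 untreated, 8 of them shared, and 6 of the 8 had higher enrichment with arsenic, with a median difference of 0.31 and 0 called. The ratio of summed IP reads, arsenic over untreated, had a median of 3.67 in these 8 windows, against 0.844 over the 2638 shared short intron windows and 0.652 over the 27 of U5 and tri-snRNP proteins. Of the 8 windows 5 were in HSP90AB1 and 2 in HSP90AA1, and the remaining one, in HSF1, the transcription factor of the heat shock response, had a ratio of 0.621. This ratio is not scaled for depth, and the counts are sums of the replicates, so no replicate error can be given. It cannot tell more transcript from more binding. In HSP90AA1, the stress-inducible form of the chaperone HSP90, a window of 99 bases had 545 IP reads and 36 input reads with arsenic, against 82 and 1 untreated. Its log2 enrichment was 5.26 and 5.56 with arsenic and 5.73 and 6.70 untreated, lower with arsenic although both kinds of reads were higher.

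Ranked by that ratio, 19 of the 2638 shared windows were above 3 and the quartiles were 0.636 and 1.11. Of these 19, 6 were in NXF1, the main export receptor of mRNA, 5 in HSP90AB1 and 2 in HSP90AA1. NXF1 and HSP90AB1 are the only genes with more than 2, and they were singled out after the values were seen. Summed over its 6 shared short introns, NXF1 had 858 IP reads with arsenic and 199 untreated, a ratio of 4.31, and 35 and 12 input reads. Its 51 other shared windows had 6246 and 2467 IP reads, a ratio of 2.53. HSP90AB1 had 1271 IP reads with arsenic and 352 untreated in 5 short introns, a ratio of 3.61, and 68 and 20 input reads, and a ratio of 3.37 in its 37 other shared windows. HSP90AA1 had 793 and 116 in 2 short introns, a ratio of 6.84, and 5.32 in its 16 other windows. High ratios were not particular to these genes. The actin gene ACTG1 had 2063 and 592 in 2 short introns, a ratio of 3.48, and 2.79 in its 7 other windows. ACTB, another actin gene, had ratios of 2.65 in 2 short introns and 3.39 in its 15 other windows. A MYL6 window had 5.16. Of 537 genes with at least 2 shared short introns, 9 had a ratio above 2 and 41 a ratio below 0.5.

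In 4 of the 6 NXF1 windows enrichment was higher with arsenic as well. The window at chr11:62795966-62796043 had the largest difference of all shared short introns, 3.51, with log2 6.38 and 7.80 with arsenic and 3.04 and 4.11 untreated. It rested on 176 IP reads over 1 input read with arsenic and 41 over 5 untreated, and it did not pass. The next window had 4.35 and 5.81 with arsenic and 2.67 and 3.79 untreated, and 2 windows differed by -0.08 and -0.16. At the other end, SNX17 and CYC1, with 3 shared short introns each, had read ratios of 0.325 and 0.349.

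**Figure D5:**
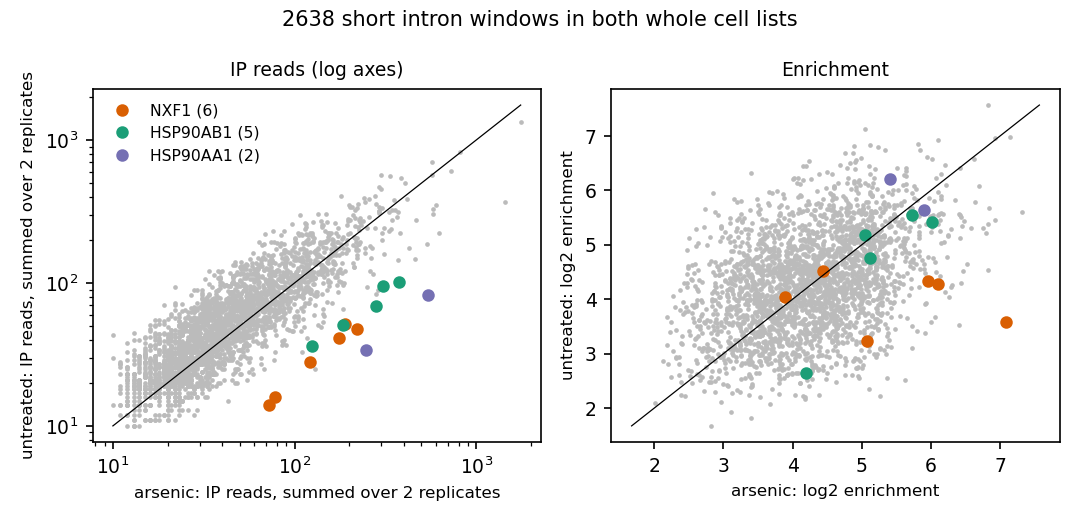
The 2638 short intron windows in both whole cell lists, with arsenic on the horizontal and untreated on the vertical axis, as summed IP reads on log axes (left) and as log2 enrichment of IP over input (right). Each point is a window and the line marks equal values; windows of NXF1, HSP90AB1 and HSP90AA1 are coloured and lie to the arsenic side in reads, with gene ratios of 4.31, 3.61 and 6.84, and on both sides of the line in enrichment.

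CAPRIN and G3BP1, the cytoplasmic proteins, had 11 short intron windows between them, 1 of which was in both lists. The CAPRIN window with the most IP reads was in JAG2, a Notch ligand, with 181 IP reads over 10 input reads and log2 3.61 and 4.83. The same window was in the G3BP1 list with 25 over 3 and log2 3.10 and 3.81, and in the untreated SNRNP200 whole cell list with 46 over 3 and log2 2.37 and 4.57. It was in these 3 lists and was the only JAG2 window in the CAPRIN and G3BP1 lists. DERL3, a protein of endoplasmic reticulum degradation, had 54 IP reads, PTPRS, a receptor phosphatase, 34, and C1orf35 23. PTPN9, MRPS34, PRDX5, FLNA and HNRNPA2B1 had 13 to 17. The HNRNPA2B1 window described above had log2 2.69 and 3.55 with CAPRIN.

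Among the 9 CAPRIN windows, those of PRDX5, MRPS34, HNRNPA2B1 and C1orf35 were in both SNRNP200 whole cell lists, and JAG2 and FLNA in the untreated one. In G3BP1 the window of NDUFS7, a subunit of respiratory complex I, had 863 IP reads over 17 input reads and log2 6.28 and 9.35. It touched an exon window with a mean log2 of 9.47. FOS, a transcription factor induced by stress, had 31 IP reads over 0 input reads and log2 5.49 and 5.99, and no other FOS window was listed with G3BP1. FOS stood in a set of entries that counts up to 3 replicates, although the labels give 2. Neither was in an SNRNP200 whole cell list.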

How the data were processed

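Per the submitters' processing notes, the authors used fastp 0.11.5, STAR 2.7.6 and hg38; the window caller is not named in the labels or files. The lists have no header, and what each column holds was read from its values. The deposited input and IP read counts are raw sums of both replicates. The deposited log2 enrichment is given as the lowest, mean and highest replicate, the mean being the midpoint in all 7789 entries of short intron windows within 0.001. The deposited p-value and q-value columns hold the extremes of the replicates, and every listed window has q under 0.2. GC content was deposited as a fraction of bases. The deposited number of replicates is another column. The labels' protocols mention arsenic even for untreated samples, so grouping followed the characteristics, and all protocols name the same antibody number.

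Here, neighbours were found by touching ends on the same strand. Windows in both whole cell lists were fitted with limma 3.58.1 (R 4.3.3, unpaired, not centred) on 2 against 2 values, a design in which an exact permutation test cannot reach 0.05. It was tested on simulated data with 50 planted windows per size, and 4 windows without a planted difference were called. Enrichment was normalised within a list, so levels in separate lists may differ in baseline. Members and gene lists were chosen with earlier results of these data known. Named windows were the 5 most enriched with at least 10 input reads, the 5 genes with most windows, the 5 largest differences each way with replicates apart (4 existed upwards), the 5 windows in 1 list with most IP reads, the 3 shortest and longest, and all of CAPRIN and G3BP1. Python 3.11.15 and pandas 2.3.3 were used.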

Additional observations from a re-analysis of the deposited data

How the results depend on the processing

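No paired analysis was possible because the deposited values carry no replicate numbers, and for the same reason no replicate could be left out. The fit between cytoplasm and whole cell was not run, since the cytoplasmic lists held 0 short intron windows. The count of called short intron windows between arsenic and untreated was 0 under every fit tried: 1 window per gene, a variance trend, robust moderation, the median difference removed, at least 20 IP and 10 input reads, and q under 0.05. The median difference of -0.03 lay between -0.05 and 0.10 with deeper windows, at q under 0.05, with 1 short intron window per gene and with the median removed. It was -0.08 in the 215 short intron windows of the fit with 1 window of any kind per gene. At q under 0.05, where it was 0.10, that of all windows was 0.19. The share of windows that are short intron, arsenic minus untreated, was 0.0778 percentage points, -0.215 with lists of equal length, 0.632 at q under 0.05 and -0.0847 weighted by IP reads, so its direction depends on the setting, and the cause was not tested. The share of arsenic windows also found untreated was 86.2% at q under 0.05 and 97.9% with at least 20 IP and 10 input reads. At q under 0.05 the lists held 1249 short intron windows with arsenic, 2632 untreated and 5 for CAPRIN. The excess over windows at 1 splice site stayed positive in all alternatives, from 0.13 to 0.53. In the G3BP1 set with up to 2 replicates the count was 2. Low input reads limit each single window.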
